A study of Mus musculus with 16 samples.

Results

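The nuclei described here were picked out of snRNA-Seq counts of the mouse medial prefrontal cortex by markers of somatostatin (Sst) interneurons. A nucleus was taken when it held at least 2 UMIs (counted RNA molecules) of Gad1 and Gad2 together, at least 2 UMIs of Sst, no UMI of Pvalb, Vip or Lamp5, and at most 1 UMI of Slc17a7. The rule picked 629 of 114512 nuclei, between 13 and 86 per mouse, and they are called Sst nuclei below. They came from 16 male mice aged 22 weeks, 4 in each of 4 groups. WT control mice and 3xTg-AD mice breathed air, and WT alcohol mice and 3xTg-AD alcohol mice breathed ethanol vapor in repeated cycles. All 4 groups received pyrazole, which slows the breakdown of ethanol. Among its alleles, the 3xTg-AD line carries human APP with the Swedish mutation and human tau with the P301L mutation, both driven by the neuronal Thy1.2 promoter. The labels give the strain of the WT mice as B6;129.

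Sst interneurons are GABAergic neurons that arise in the medial ganglionic eminence under the transcription factors Lhx6, Sox6 and Satb1. Many of them, the Martinotti cells, send axons to layer 1 and inhibit the distal dendrites of pyramidal neurons, and a rarer long-range type makes Nos1, Npy and Chodl. Somatostatin, the peptide that names them, is cut from a precursor and released from dense-core vesicles, and its decline in the cortex is a well-known feature of Alzheimer's disease.

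The gene that carries the rule, Sst (chromosome 16, 23889573 to 23890958, minus strand, GRCm38), is transcribed from a promoter with a cAMP response element, the site through which CREB turns the gene on after neuronal activity. The 250 bases before the start site of Sst, taken from RefSeq (chr16:23890845-23891094, minus strand, GRCm38.p6), are shown because every nucleus was chosen by this gene's transcripts, with the element in capitals. RefSeq places the start site inside the GENCODE limits given above, so that 114 of these bases, the element among them, lie within the gene as GENCODE draws it.
Sst promoter: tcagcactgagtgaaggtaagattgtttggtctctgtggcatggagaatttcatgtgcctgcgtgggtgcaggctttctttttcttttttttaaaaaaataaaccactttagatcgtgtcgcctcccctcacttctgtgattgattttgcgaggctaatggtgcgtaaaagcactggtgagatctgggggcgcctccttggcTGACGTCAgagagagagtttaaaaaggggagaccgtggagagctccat
The element TGACGTCA, which reads the same on both strands, began 48 bases before the start. It was found in 508 of 32851 mouse promoters of that length (1.55%). Among the genes named below for a group difference, the promoter of Gpm6b held these letters and those of Tmsb4x, Frmpd4 and Timp4 did not.

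The Sst nuclei held 1512139 UMIs in all, with a median of 2249 UMIs per nucleus (range, 600 to 9175). The sum per mouse, the unit of all comparisons between groups, ran from 25085 to 257954 UMIs, so that a mouse with few Sst nuclei gave imprecise levels. A nucleus held 3 Sst UMIs at the median and 35 at most, and 382 of the 629 nuclei (60.7%) held just 2 UMIs of Gad1 and Gad2. Levels are given as counts per 1000000 UMIs (CPM) of the summed Sst nuclei, with SDs between mice. Levels per mouse are scaled by the normalization factors (TMM) of their fit, while sums over all nuclei of a class are not. The 629 nuclei held 3145 of the 56423 Sst UMIs of the table (5.57%), since most nuclei with an Sst UMI lacked the other marks of the rule. Among glutamatergic nuclei (at least 2 Slc17a7 UMIs and no Gad1 or Gad2 UMI; 29001 nuclei; median, 2535 UMIs), which should lack Sst, 2.96% to 11.6% per mouse held 2 or more Sst UMIs. Of GABAergic nuclei (at least 2 Gad1 and Gad2 UMIs, at most 1 Slc17a7 UMI; median, 1771 UMIs), 5.32% to 20.3% per mouse were Sst nuclei. The second share was larger in every mouse, and the 2 lay closest in 3xTg-AD mouse 21 (6.33% and 6.53%). A barcode was shared with a nucleus of another library for 19 Sst nuclei, and no barcode was shared between Sst nuclei of different libraries. Of the libraries, 3 stood apart from the rest. Gm42418, a transcript that overlaps ribosomal RNA, stood at 24198 CPM in WT control mouse 26, 17084 CPM in WT control mouse 27 and 13544 CPM in 3xTg-AD mouse 12, against 1828 to 4569 CPM in the other 13 mice. WT control mouse 27 also stood apart by the summed oligodendrocyte markers of its Sst nuclei (1816 CPM, against 146 to 557 CPM in the others) and striatal markers (771 CPM, against 57.8 to 265 CPM), and WT control mouse 26 by its summed microglial and vascular markers (491 CPM, against 0 to 226 CPM).

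The label was checked against markers that the rule did not use, and the strength of the check depended on how many Sst UMIs a nucleus held. The values that follow sum all nuclei of a class and are given without a test. Grin3a, a glutamate receptor subunit typical of Sst interneurons, stood at 119 CPM in the 780 nuclei just outside the rule (1 Sst UMI), 220 CPM in the 240 nuclei just inside it (2 Sst UMIs), 336 CPM in the 164 nuclei with 3 to 4, 547 CPM in the 146 nuclei with 5 to 9 and 555 CPM in the 79 nuclei with 10 or more. Elfn1, the synaptic adhesion protein that shapes the inputs of Sst interneurons, climbed over the same classes from 39.3 to 95.2, 156, 188 and 264 CPM. Crhbp, which binds corticotropin-releasing hormone, went from 49.97 to 93.0, 114, 280 and 346 CPM. Each of these markers was thus several times higher in the nuclei richest in Sst than in those just outside the rule. Npy rose mainly at the top, from 336 CPM at 2 Sst UMIs to 1247 CPM at 10 or more. Lhx6 was at 86.7 CPM with 2 Sst UMIs, 158 CPM with 5 to 9 and 124 CPM with 10 or more.

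Most markers of other classes ran the opposite way. Between 2 and 10 or more Sst UMIs, 13 of 20 markers of other interneurons were lower and 4 higher, as were 12 and 4 of 16 glutamatergic markers (Slc30a3 and Tle4 among the higher), 8 and 1 of 9 astrocyte markers and 10 and 0 of 10 oligodendrocyte markers, against 2 and 16 of the 18 Sst class markers. Adarb2, which marks interneurons of the caudal ganglionic eminence and not Sst cells, stood at 328 CPM with 1 Sst UMI and 176 CPM with 2, and fell to 10.6 CPM with 3 to 4 and 3.88 CPM with 10 or more. The astrocyte transporter gene Slc1a3 was also lower in nuclei rich in Sst. So was Erbb4, a receptor gene of interneurons from both eminences that was listed among the Sst class markers and went against that label (290 CPM with 2 Sst UMIs and 38.8 CPM with 10 or more). The nuclei with exactly 2 Sst UMIs made up 38.2% of all members, and their sum held markers of Sst and of other interneurons. Sums do not show whether single nuclei held both. The median UMIs per nucleus also rose over these classes, from 1848 at 2 Sst UMIs to 2943 at 10 or more, and its part in these values was not tested.

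**Figure D1:**
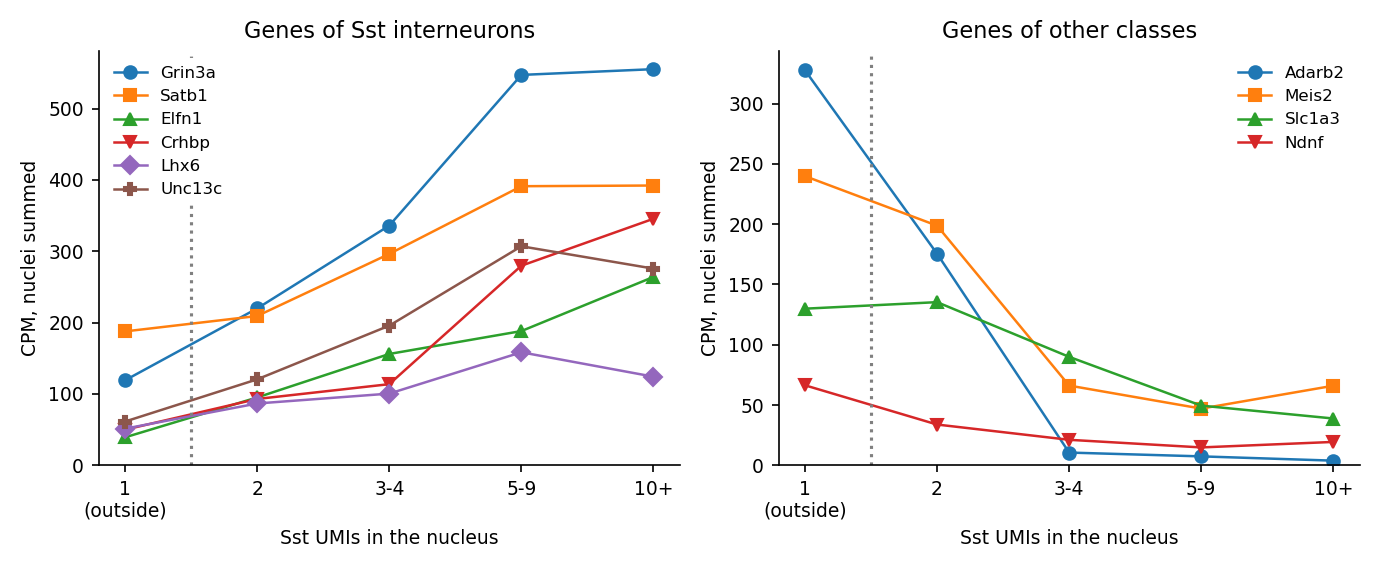
Levels (CPM, linear axis from 0) of 6 genes of Sst interneurons (left) and 4 genes of other classes (right), each point a sum over all nuclei with the number of Sst UMIs on the x axis, without error bars; the dotted line is the limit of the rule. Grin3a rose from 220 to 555 CPM inside the rule while Adarb2 fell from 176 to 3.88 CPM.

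By nucleus, Grin3a was seen in 45.9% of the Sst nuclei (95% exact binomial interval, 42.0 to 49.9), against 10.1% of the 3036 GABAergic nuclei without an Sst UMI (median, 1659.5 UMIs) and 8.33% of the glutamatergic nuclei. After each nucleus of at least 1000 UMIs was thinned to 1000 UMIs, which left 583 Sst nuclei, the 3 shares were 26.6%, 6.20% and 3.47%. Intervals cover counting error only. Before thinning, the share of Sst nuclei with Grin3a ranged from 7.69% to 56.25% over the mice (median, 46.1%). Elfn1 was seen in 28.1% of Sst nuclei and 4.15% of the other GABAergic nuclei, Crhbp in 25.4% and 4.84%, and Lhx6 in 22.4% and 6.85%. The marker Unc13c, a presynaptic priming factor, was seen in 26.4% and 3.82%. With the mice pooled, all 5 markers were thus seen several times more often in Sst nuclei than in the other GABAergic nuclei. Most single Sst nuclei showed none of a given marker at this depth.

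The marks of Sst subtypes were spread unevenly. Npy, the vasoactive and anticonvulsant peptide, was seen in 45.8% of Sst nuclei (29.2% of other GABAergic nuclei), Reln, a secreted matrix protein, in 34.8% (14.7%), and Calb1, a calcium buffer found in Martinotti cells, in 31% (19.0%). Nos1 was seen in 10.3% (5.37%), and 48 nuclei held both Npy and Nos1. Chodl, the mark of the long-range type, was seen in 6 nuclei, all 6 of which also held Npy and 5 of which held Nos1. Cort, the sister peptide of somatostatin, was seen in 7.79% (4.02%). Calb2, which marks a Martinotti type of the upper layers, was seen in 2.70% of Sst nuclei and 2.54% of the other GABAergic nuclei, which was not distinguishable at this depth. Chrna2, Myh8, Cbln4 and Hpse, marks of deep-layer and other subtypes, were each seen in at most 1.59% of Sst nuclei.

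To place Sst nuclei among interneurons, sums per mouse were set against those of GABAergic nuclei with no Sst UMI from the same mouse. This was done because the marker classes of the same kind were small, at 25 Pvalb, 162 Vip and 98 Lamp5 nuclei. The contrast is close to the one the rule was built on, so the values describe the Sst nuclei, and the calls are read for nothing more. This fit has its own normalization factors, so its CPM of Sst nuclei differ slightly from those compared between groups. Over all mice, Lhx6 stood at 115 ± 36.4 CPM and Adarb2 at 48.3 ± 66.7 CPM on that other scale. With edgeR, 590 of 4701 genes (12.6%) had an adjusted p of 0.05 or less and were called, 298 higher (6.34%) and 292 lower (6.21%) in Sst nuclei, and the median over all genes was -0.01 on the log2 scale. Of the 18 class markers of Sst interneurons, 15 were called higher and 2 lower, with a median log2 fold change of 1.05. Unc13c stood at 237 ± 97.5 CPM (SD, n = 16 mice) in Sst nuclei and 28 ± 23 CPM in the others (log2 fold change, 3.19 ± 0.17 SE) and was higher in 16 of 16 mice. Elfn1 (2.69 ± 0.17), Grin3a (2.63 ± 0.11) and Crhbp (2.63 ± 0.16) followed. Lhx6 was at 116 ± 35.4 CPM against 44.2 ± 20.9 CPM (1.30 ± 0.17), and the transcription factors Satb1 (1.2 ± 0.11) and Sox6 (1.06 ± 0.15) were likewise higher. The 2 class markers on the low side, Dlx6os1 (-1.60 ± 0.10) and Erbb4 (-1.26 ± 0.19), are shared with other interneurons. Dlx6os1 was not lower than in Pvalb nuclei (summed levels of 166 and 105 CPM).

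Of 16 glutamate receptor genes, 8 were called higher and 0 lower, with a median log2 fold change of 0.32. Over all genes, 6.34% were called higher and 6.21% lower, and the median was -0.01. Grm7, a metabotropic receptor gene of presynaptic sites, was at 141 ± 37.4 CPM in Sst nuclei against 52.0 ± 25.0 CPM in the others (1.55 ± 0.16). The kainate receptor genes Grik3 (1.86 ± 0.17) and Grik1 (0.74 ± 0.10) and the AMPA receptor genes Gria1 (1.02 ± 0.08) and Gria3 (0.38 ± 0.07) were higher as well. Summed over all nuclei of a class, Gria1 was at 660 CPM in Sst, 570 CPM in Pvalb, 298 CPM in Vip and 280 CPM in Lamp5 nuclei. Gria3 was at 796, 895, 253 and 538 CPM in that order. Neither was called against Pvalb nuclei (0.09 and -0.20, adjusted p = 0.793 and 0.504, edgeR). Of 13 GABA receptor genes, 0 were called higher and 4 lower, among them the subunit genes Gabrb2 (41.2 ± 32.9 against 76.04 ± 28.9 CPM; -0.96 ± 0.20; lower in 13 of 16 mice) and Gabrg3 (70.7 ± 32.3 against 108.8 ± 33.5 CPM; -0.65 ± 0.16; lower in 13 of 16 mice).

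Among adhesion molecules, 10 of 27 were called higher and 3 lower. Beside this and the lists that follow, 6.34% of all genes were called higher and 6.21% lower. Cdh9 was at 196 ± 75.4 against 37.9 ± 11.8 CPM (2.37 ± 0.15) and Cdh13 at 179 ± 70.5 against 66.4 ± 21.3 CPM (1.32 ± 0.15), while Cntn5 was lower (-1.42 ± 0.13). Ion channel genes were split. Of 16 calcium and sodium channel genes, 6 were higher and 2 lower, and the auxiliary calcium channel subunit genes moved in opposite directions, Cacna2d3 up (1.80 ± 0.11) and Cacna2d1 down (-1.65 ± 0.13). The summed Cacna2d1 level was 82.0 CPM in Sst, 46.5 CPM in Pvalb, 260 CPM in Vip and 674 CPM in Lamp5 nuclei. Cacna2d1 was thus not lower than in Pvalb nuclei (0.44, adjusted p = 0.692, edgeR). Of 24 potassium and HCN channel genes, 2 were higher and 7 lower, including Kcnn2, a small-conductance channel gene (-1.72 ± 0.15), and Kcnc1, which encodes a channel of fast-spiking cells (-0.49 ± 0.09). Of 15 genes for peptide processing and dense-core vesicles, 4 were higher and 2 lower. The vesicle protein and peptide precursor gene Vgf (284 ± 128 against 121 ± 34.2 CPM; 1.23 ± 0.11) and the granin genes Chga (0.63 ± 0.15) and Scg2 (0.43 ± 0.11) were higher, whereas the convertase gene Pcsk2 was lower (-0.51 ± 0.09).

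Of 20 markers of the other interneuron types 9 were tested, and 6 were called lower and 1 higher. Beside this and the other lists of this paragraph, 6.21% of all genes were called lower and 6.34% higher. Adarb2 was at 49.3 ± 68.8 against 525 ± 87.3 CPM (-3.15 ± 0.37) and Ndnf, a neurogliaform marker, at 23.6 ± 21.6 against 111 ± 51.9 CPM (-2.23 ± 0.21), both lower in 16 of 16 mice. Kit, a receptor tyrosine kinase gene, was lower by the same count (-2.36 ± 0.17). Cck (-0.44 ± 0.07) and the cannabinoid receptor gene Cnr1 (-0.78 ± 0.19) were lower too. Nuclear oxidative phosphorylation genes and cytosolic ribosomal protein genes had 14 of 73 and 12 of 78 members called lower and 0 higher, with medians of -0.19 and -0.18, and most members of either list did not pass. Other lists leaned the same way. Of mitochondrially encoded genes 5 of 12 were lower and 0 higher (median, -0.22), and of astrocyte markers 3 of 4 and 0 (-0.45). Of glutamatergic markers 3 of 11 were lower and 1 higher (-0.30). The source of these lower values was not tested. Against the mean of the Pvalb, Vip and Lamp5 nuclei, 189 genes had enough counts and 57 (30.2%) were called. Npy was higher there (0.99 in log2), but by class it was higher than in Pvalb (2.10) and Vip nuclei (1.52) and lower than in Lamp5 nuclei (-0.66). Genes called higher and lower in Sst nuclei numbered 37 (19.6%) and 11 (5.82%) against Pvalb nuclei, 24 (12.7%) and 26 (13.8%) against Vip nuclei and 25 (13.2%) and 32 (16.9%) against Lamp5 nuclei. Values against these classes moved with the settings of the fit. Against their mean, Npy ran from 0.99 to 1.85, Gria1 from 0.85 to 1.76, Kcnc1 from -0.93 to -0.04 and Mir124a-1hg from -0.90 to 0.04. The split into higher and lower therefore depends on the settings.

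**Figure D2:**
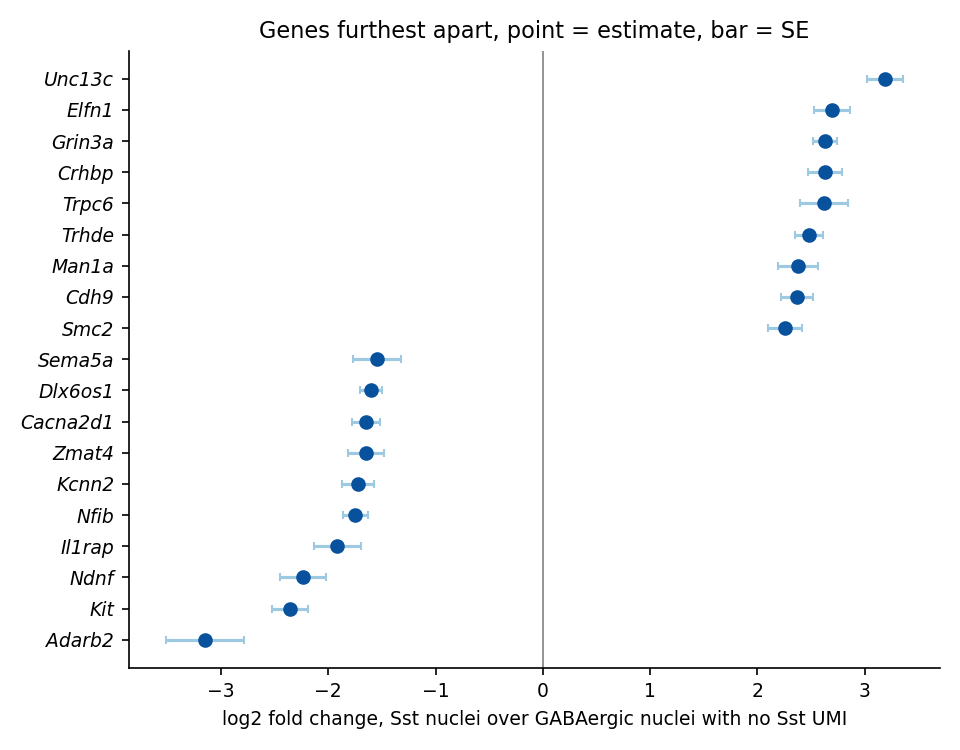
Log2 fold change (x axis) of the genes furthest apart in each direction among those reported here, Sst nuclei over GABAergic nuclei with no Sst UMI, with points for the edgeR estimate over 16 mice and bars for 1 SE. Unc13c lay highest at 3.19 and Adarb2 lowest at -3.15.

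Sst nuclei were fewest in unexposed 3xTg-AD mice and most numerous in WT alcohol mice, although the differences did not pass after adjustment. Their share is given as a percent of all nuclei of a mouse. In WT control mice it was 0.215%, 0.524%, 0.444% and 0.882% in mice 26, 27, 28 and 36. In WT alcohol mice it was 0.730%, 0.659%, 1.22% and 0.878% in mice 6, 7, 17 and 18. The WT alcohol mice lay high, and WT control mouse 36 reached into their range. In 3xTg-AD mice it was 0.273%, 0.377%, 0.335% and 0.180% in mice 12, 13, 14 and 21. In 3xTg-AD alcohol mice it was 0.485%, 0.417%, 0.385% and 0.787% in mice 4, 31, 33 and 34. All 4 unexposed 3xTg-AD mice lay below every alcohol-exposed mouse of either genotype, and they overlapped with WT controls.

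By exact two-sided permutation tests (5 comparisons, Benjamini-Hochberg), the differences in share did not reach an adjusted p of 0.05. The tests of 8 against 8 mice did not take the other factor into account, so its differences add to the spread. The mean of the 8 3xTg-AD mice was 0.405% against 0.694% in the 8 WT mice, a difference of -0.29 points (permutation p = 0.0379, adjusted p = 0.0948). The mean of the 8 alcohol-exposed mice was 0.695% against 0.404% in the 8 unexposed mice, a difference of 0.29 points (permutation p = 0.0359, adjusted p = 0.0948). WT alcohol mice (0.872% ± 0.250, SD, n = 4) and 3xTg-AD mice (0.291% ± 0.0855, n = 4) each differed from WT controls (0.516% ± 0.277, n = 4) with an exact p of 0.143 (adjusted p = 0.179), where 4 against 4 mice cannot go below 0.0286. 3xTg-AD alcohol mice were at 0.518% ± 0.184 (n = 4), 0.00216 points above WT controls (exact p = 1.0), a difference that turned to -0.15 points when 1 Sst UMI was enough and to -0.043 points with thinning. Without WT control mouse 36, 3xTg-AD mice differed from WT controls by -0.10 points in place of -0.23. Without the 3 mice rich in Gm42418, the differences from WT controls were 0.21 points for WT alcohol (0.36 with them), -0.37 points for 3xTg-AD and -0.14 points for 3xTg-AD alcohol mice. Because the rule asks for UMIs, fewer Sst nuclei and fewer Sst UMIs per nucleus cannot be told apart. Every nucleus of at least 1000 UMIs was then thinned to 1000 in a random draw that was not repeated, and shallower nuclei were left out of both counts. The rule was applied anew to the thinned counts, and 3 to 20 nuclei per mouse met it. These may include nuclei that had failed the rule before thinning. The genotype difference was then -0.15 points and passed (permutation p = 0.00451, adjusted p = 0.0225), while that of alcohol did not (permutation p = 0.0549, adjusted p = 0.0914). As a percent of the GABAergic nuclei of a mouse, Sst nuclei were at 11.1% in 3xTg-AD and 13.5% in WT mice (permutation p = 0.345, adjusted p = 0.574), and at 14.9% in alcohol-exposed and 9.63% in unexposed mice (permutation p = 0.0329, adjusted p = 0.165). GABAergic nuclei were themselves a smaller part of all nuclei in the 3xTg-AD groups, which was not tested. They numbered 885 of 27433 in 3xTg-AD and 1207 of 30326 in 3xTg-AD alcohol mice. The counts were 1326 of 25391 in WT control and 1619 of 31362 in WT alcohol mice. Without the 3 mice rich in Gm42418, the difference in the share of all nuclei was -0.38 points for genotype (permutation p = 0.0140, adjusted p = 0.0699) and 0.25 points for alcohol (permutation p = 0.129, adjusted p = 0.322).

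How much Sst a nucleus held followed a similar order, which is given as a description because Sst is part of the rule. The mice had 39.7% to 46.5% of their Sst nuclei at 5 or more Sst UMIs in the WT alcohol group, 20.0% to 36.8% in WT controls, 7.41% to 31.2% in 3xTg-AD mice and 20.0% to 45.7% in 3xTg-AD alcohol mice. All WT alcohol mice lay above all unexposed mice. The Sst level of these nuclei was 2382 ± 517 CPM in WT alcohol mice, 2065 ± 361 CPM in 3xTg-AD alcohol mice, 1878 ± 432 CPM in unexposed WT mice and 1664 ± 152 CPM in unexposed 3xTg-AD mice (SD, n = 4 each), and neighbours in this order differed by less than the larger of their SDs. The median UMIs of Sst nuclei spanned 1659 to 3005 over the mice with overlapping groups. The share of glutamatergic nuclei with 2 or more Sst UMIs was 5.04% ± 3.67 in WT control, 7.74% ± 4.10 in WT alcohol, 5.93% ± 2.14 in 3xTg-AD and 6.92% ± 1.96 in 3xTg-AD alcohol mice, and its part in the shares of Sst nuclei was not tested.

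**Figure D3:**
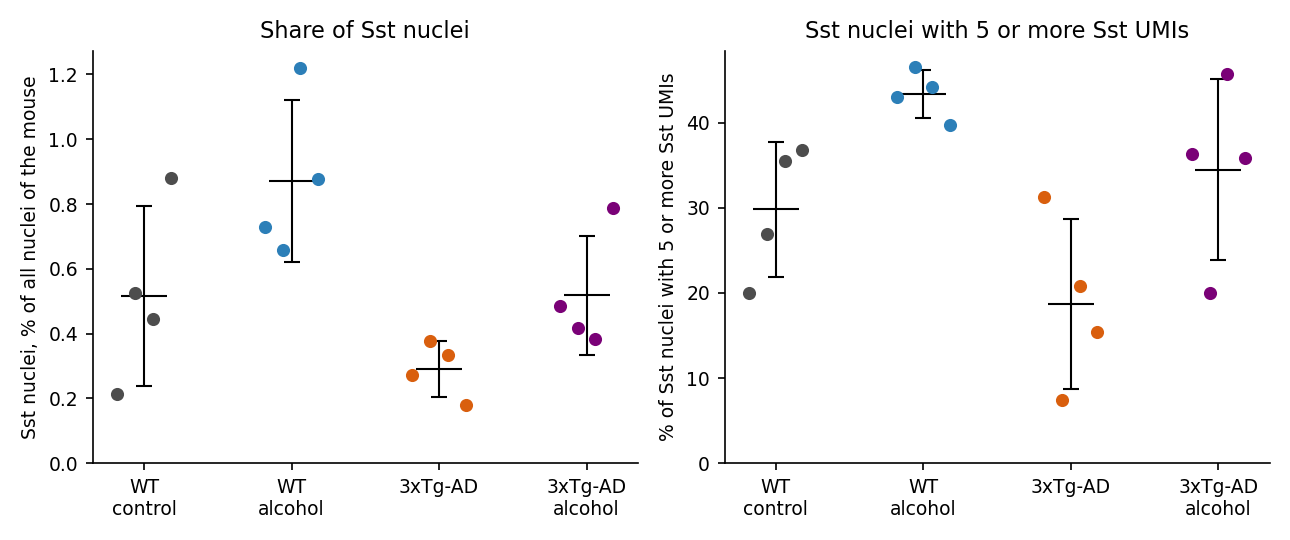
Left, Sst nuclei as a percent of all nuclei of each mouse; right, the percent of those nuclei with 5 or more Sst UMIs. Points are mice, lines are group means and bars 1 SD (n = 4 per group); on the left the 3xTg-AD mice (0.180% to 0.377%) lie below all alcohol-exposed mice, and WT control mice overlap with both the 3xTg-AD and the WT alcohol mice (0.659% to 1.22%).

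Gene levels within Sst nuclei were then compared between groups with edgeR on sums per mouse, for 1983 genes with enough counts, the 7 genes of the rule left out. Few genes passed in any contrast. Between the 8 3xTg-AD and the 8 WT mice, 3 of 1983 genes (0.151%) were called, all higher in 3xTg-AD mice, namely Tmsb4x, Gpm6b and Frmpd4. All 3 lie close together at the distal end of chromosome X.

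Tmsb4x (X, 167207093 to 167209315, minus strand, GRCm38) encodes thymosin beta-4, which binds actin monomers. In WT control mice it stood at 810, 668, 1481 and 1181 CPM (mice 26, 27, 28 and 36), and in WT alcohol mice at 1456, 1426, 1028 and 1532 CPM (mice 6, 7, 17 and 18). In 3xTg-AD mice it stood at 1424, 2711, 2515 and 2870 CPM (mice 12, 13, 14 and 21), and in 3xTg-AD alcohol mice at 2954, 2034, 2529 and 2041 CPM (mice 4, 31, 33 and 34). Apart from 3xTg-AD mouse 12, one of the libraries rich in Gm42418, every 3xTg-AD mouse lay above every WT mouse. The log2 fold change was 1.0 ± 0.15 SE (adjusted p = 1.12e-05, edgeR) between the genotypes, 1.18 ± 0.22 in 3xTg-AD mice against WT controls (adjusted p = 0.00218; 1 gene called, 0.0504%) and 1.19 ± 0.21 in 3xTg-AD alcohol mice against WT controls (adjusted p = 0.00104; 1 gene called, 0.0504%). The last 2 share the control mice, and 102 (5.14%) and 149 genes (7.51%) had an unadjusted p under 0.05 in them. The genotype difference was 0.91 without the 3 mice rich in Gm42418 and still passed, whereas without them neither comparison with WT controls passed (0.86 with alcohol and 1.01 without). Without WT control mouse 27 alone, 3xTg-AD against WT control was 1.02 (adjusted p = 0.0563).

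Gpm6b (X, 166238911 to 166388988, plus strand) encodes a membrane proteolipid of neurons and glia. Its levels were 260, 291, 337 and 351 CPM in WT control mice and 254, 232, 298 and 330 CPM in WT alcohol mice. They were 388, 531, 499 and 529 CPM in 3xTg-AD mice and 657, 518, 506 and 491 CPM in 3xTg-AD alcohol mice, so the genotypes did not overlap. The log2 fold change was 0.77 ± 0.17 (adjusted p = 0.0122). Frmpd4 (X, 167471309 to 168577231, minus strand) encodes a postsynaptic scaffold protein that binds PSD-95. It stood at 173, 68.5, 150 and 128 CPM in WT control, 127, 146, 100.5 and 63.8 CPM in WT alcohol, 311, 220, 173 and 302 CPM in 3xTg-AD and 196, 202, 271 and 255 CPM in 3xTg-AD alcohol mice. The genotypes overlapped only through WT control mouse 26 and 3xTg-AD mouse 14, both at 173 CPM, and the log2 fold change was 1.04 ± 0.23 (adjusted p = 0.0122). Frmpd4 no longer passed without WT control mouse 36 (adjusted p = 0.0503), nor Gpm6b without WT alcohol mouse 6, 3xTg-AD mouse 13 or 3xTg-AD alcohol mouse 4 (adjusted p = 0.0511 to 0.0900). Without the 3 mice rich in Gm42418 neither passed (Frmpd4, 0.92, adjusted p = 0.123; Gpm6b, 0.75, adjusted p = 0.0596). Each of Frmpd4 and Gpm6b was lost in 4 of 11 alternatives other than leaving out 1 mouse, and Tmsb4x in 1. When at least 5 Sst UMIs were asked for, none of the 3 genes passed, at 0.63 for Tmsb4x, 0.60 for Gpm6b and 1.13 for Frmpd4 (adjusted p = 0.286, 0.724 and 0.472). That fit left out mice with fewer than 5 such nuclei, namely WT control mouse 26 and 3xTg-AD mice 13 and 21. Of the unexposed 3xTg-AD mice it kept only mice 12 and 14, so the set of mice changed too.

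The neighbours of these genes were then read in a window chosen after the values were seen, from Gemin8 to G530011O06Rik (X, 166170454 to 169978917, 3.81 Mb). In Sst nuclei 4 genes of the window were tested, all with log2 fold changes above 0 (range, 0.77 to 1.15, and median, 1.02), against a median of -0.00209 over all genes. Of these, 3 are the called genes around which the window was read. Their signs were known beforehand, so the median says nothing new. The fourth, Arhgap6, a GTPase-activating protein gene, had the largest value without passing (1.15, adjusted p = 0.275), and an antisense gene, Gm15261, overlaps it. In GABAergic nuclei with no Sst UMI 9 genes of the window were tested and 5 passed (0.75 to 1.39; median, 0.99), where 19 of 7575 genes (0.251%) passed in all. In glutamatergic nuclei 15 were tested and 12 passed (0.62 to 1.56; median, 0.94), where 301 of 14481 (2.08%) passed in all. All genes tested in the stretch had values above 0 in each of the 3 kinds of nuclei. Its ends are the first and last genes of the stretch that passed in glutamatergic nuclei, so this follows in part from their choice. In the 4.17 Mb before the window, none of 1, 7 and 17 genes tested passed, with medians of -0.30, -0.08 and 0.03. Past its end, Gm15247 (0.40 ± 0.25) and Gm21887 (-0.28 ± 0.26) were tested in glutamatergic nuclei and did not pass. On the rest of the X chromosome 0 of 62 genes passed in Sst nuclei, 0 of 250 in the other GABAergic nuclei and 2 higher and 2 lower of 426 in glutamatergic nuclei. The genotype differences of Tmsb4x, Gpm6b and Frmpd4 in Sst nuclei, minus those in the other GABAergic nuclei, were 0.03 ± 0.12, -0.11 ± 0.17 and -0.05 ± 0.25 (SE), with adjusted p = 0.994 for each. Against the less numerous Pvalb, Vip and Lamp5 nuclei they were -0.07 ± 0.16, -0.04 ± 0.26 and -1.09 ± 0.53 (adjusted p = 0.967, 0.990 and 0.851), so no difference in size passed.

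**Figure D4:**
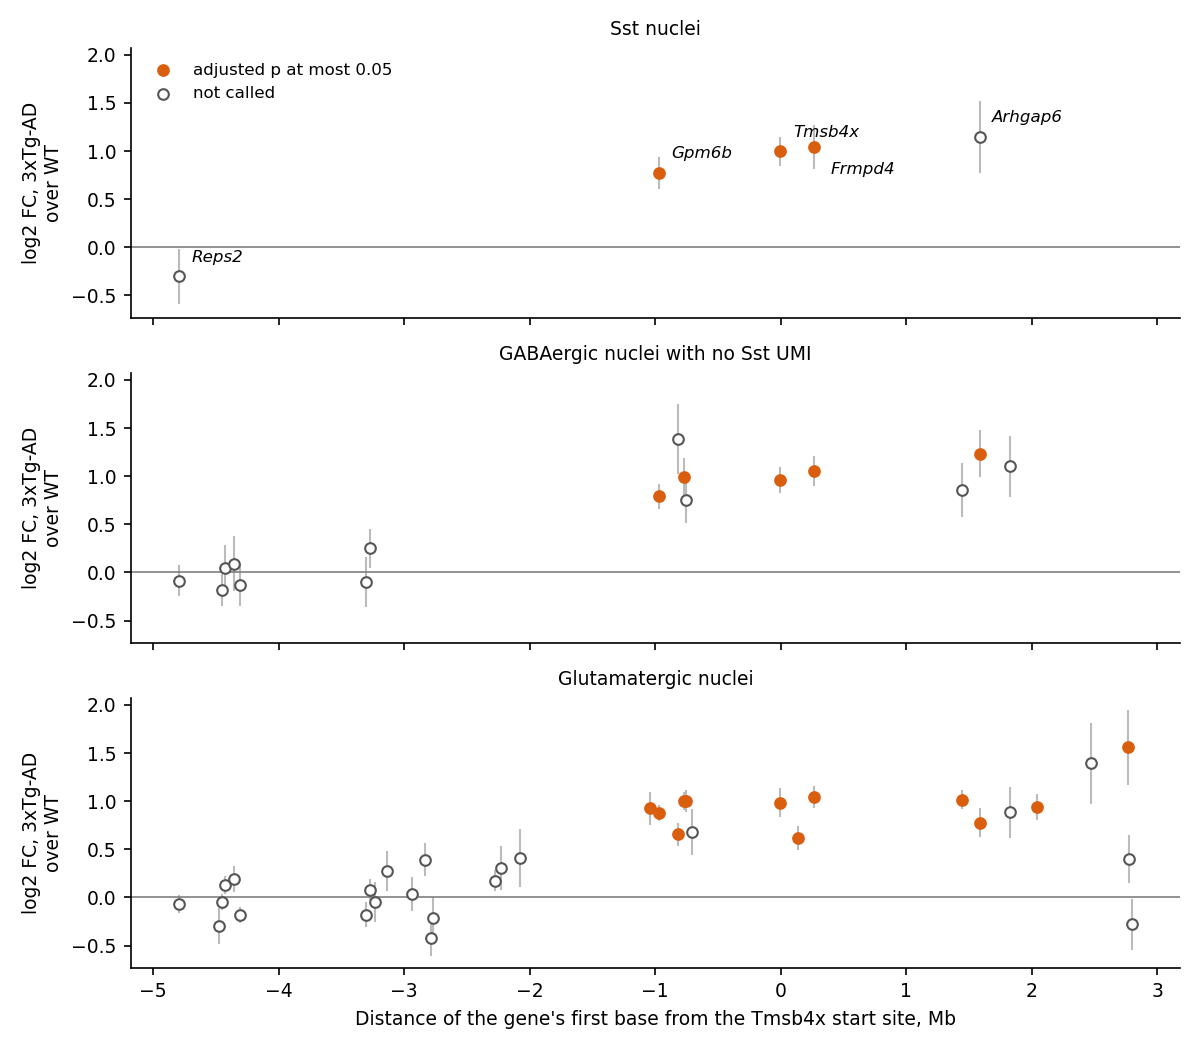
Log2 fold change of 3xTg-AD over WT mice (y axis; bars, 1 SE) for genes of the distal X chromosome against the distance of their first base from the Tmsb4x start site in Mb, in 3 kinds of nuclei; filled points had an adjusted p of 0.05 or less. Genes around Tmsb4x lie near 1 in all 3 panels (medians 1.02, 0.99 and 0.94). Genes more than 2 Mb to the left have medians of -0.30 (1 gene, Reps2), -0.08 and 0.03, and range from -0.43 to 0.41 in glutamatergic nuclei.

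Under alcohol, 3xTg-AD alcohol and WT alcohol mice differed in 3 of 1983 genes (0.151%), and 102 (5.14%) had an unadjusted p under 0.05. Gpm6b (0.94 ± 0.21, adjusted p = 0.0387) and Frmpd4 (1.15 ± 0.27, adjusted p = 0.0465) were again higher in 3xTg-AD alcohol mice. Tmsb4x was not called here (0.82 ± 0.20, adjusted p = 0.0593). Gpm6b lost its call in 8 of the 16 fits without 1 mouse (adjusted p up to 0.230) and in 3 of 11 other alternatives, and Frmpd4 in 9 (adjusted p up to 0.393) and 4. The third called gene, Timp4 (chromosome 6, 115241892 to 115252205, minus strand), encodes a secreted inhibitor of matrix metalloproteinases. It stood at 421, 378, 193 and 410 CPM in WT alcohol mice and 39.3, 101, 106 and 104 CPM in 3xTg-AD alcohol mice, with no overlap (log2 fold change of -1.97 ± 0.32, adjusted p = 0.000306). These levels rest on 63, 31, 50 and 77 UMIs and on just 4, 8, 9 and 11 UMIs. The call held in each of the 16 fits that left out 1 mouse and in 10 of 11 other alternatives, and was lost when 1 Sst UMI was enough (-1.56, adjusted p = 0.0873). Unexposed mice spanned both, at 260, 68.5, 319 and 121 CPM in WT control and 233, 202, 192 and 378 CPM in 3xTg-AD mice. The alcohol difference was thus of opposite sign in the genotypes, though it was called in neither genotype by itself. The interaction of genotype and alcohol was called for Timp4 alone (1 gene, 0.0504%; -2.44 ± 0.52; adjusted p = 0.0409), with 59 genes (2.98%) at an unadjusted p under 0.05. That call was lost in 11 of the 16 fits without 1 mouse and did not hold without the 3 mice rich in Gm42418 (-2.33, adjusted p = 0.0676) or with DESeq2 (-2.43, adjusted p = 0.0962). Over all mice, Timp4 stood at 226 CPM in Sst nuclei, 235 CPM in GABAergic nuclei with no Sst UMI and 225 CPM in glutamatergic nuclei. Its genotype difference in Sst nuclei minus that in the other GABAergic nuclei was -0.13 ± 0.24 (SE; adjusted p = 0.994, edgeR). Whether its difference under alcohol was of another size in Sst nuclei was not tested.

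For alcohol itself no gene passed with edgeR, in WT mice, in 3xTg-AD mice or over both. Over both genotypes 175 genes (8.83%) had an unadjusted p under 0.05, and 0 passed with DESeq2. Mgat4c, a glycosyltransferase gene, came nearest (1.05 ± 0.25, adjusted p = 0.118). It stood at 202, 188, 56.2 and 166 CPM in WT control and 187, 146, 298 and 271 CPM in WT alcohol mice, and at 207, 55.0, 96.0 and 0 CPM in 3xTg-AD and 216, 253, 271 and 302 CPM in 3xTg-AD alcohol mice. The exposed and unexposed mice overlapped, and without 3xTg-AD mouse 12 Mgat4c passed (1.38, adjusted p = 0.00461), as it did without WT alcohol mouse 7 (adjusted p = 0.0459) or 3xTg-AD alcohol mouse 4 (adjusted p = 0.0412). It also passed in 5 of 11 other alternatives (1.11 to 1.48; adjusted p = 0.000835 to 0.0198), among them the fits without the 3 mice rich in Gm42418 and with a Gm42418 covariate. Dock4, a Rac activator gene, had 1.18 ± 0.29 (adjusted p = 0.118) and passed without the filter on low counts (1.38, adjusted p = 0.0424), without 3xTg-AD mouse 12 (1.41, adjusted p = 0.0374) or without 3xTg-AD alcohol mouse 4 (1.25, adjusted p = 0.0442). The kinase gene Hipk2 had -0.97 ± 0.25 (adjusted p = 0.124) and passed without the 3 mice rich in Gm42418 (-1.17, adjusted p = 0.0128) and with the covariate (-1.33, adjusted p = 0.0124), and without 3xTg-AD mouse 12 alone (-1.05, adjusted p = 0.0374).

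In WT mice 112 genes (5.65%) had an unadjusted p under 0.05 and 0 passed with DESeq2. The smallest p belonged to Tmem181a (-1.42 ± 0.36) and Maf (-1.0 ± 0.26), both with adjusted p = 0.241, followed by Zbtb20 (-0.96 ± 0.29, adjusted p = 0.782). Tmem181a passed without WT control mouse 27 (-1.59, adjusted p = 0.0491) or 28 (-1.56, adjusted p = 0.0474) and when 1 Sst UMI was enough (-1.40, adjusted p = 0.0113). Maf, a transcription factor that takes part in the formation of Sst and Pvalb interneurons, stood at 810, 754, 693 and 313 CPM in WT control mice 26, 27, 28 and 36, and at 334, 305, 290 and 277 CPM in WT alcohol mice. The first 3 controls lay above every other mouse of the study, and control mouse 36 lay within the WT alcohol range. Without mouse 36 Maf passed (-1.28, adjusted p = 0.00653), and without the 3 mice rich in Gm42418 it was -0.58 and did not. In 3xTg-AD mice it stood at 155, 202, 403 and 453 CPM and in 3xTg-AD alcohol mice at 196, 392, 353 and 217 CPM. In 3xTg-AD mice, 122 genes (6.15%) had an unadjusted p under 0.05 for alcohol and 0 passed with DESeq2. Dock4 (1.95 ± 0.49), Lrtm1 (-1.30 ± 0.35) and Enah (1.17 ± 0.32) had the smallest p, all with adjusted p = 0.262. Lrtm1, which encodes a leucine-rich membrane protein, was at 285, 275, 288 and 264 CPM in 3xTg-AD mice and 78.5, 63.2, 129 and 170 CPM in 3xTg-AD alcohol mice, which did not overlap. Dock4 was at 77.7, 36.6, 19.2 and 37.8 CPM against 128, 190, 141 and 189 CPM, from 7 and 60 UMIs.

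**Figure D5:**
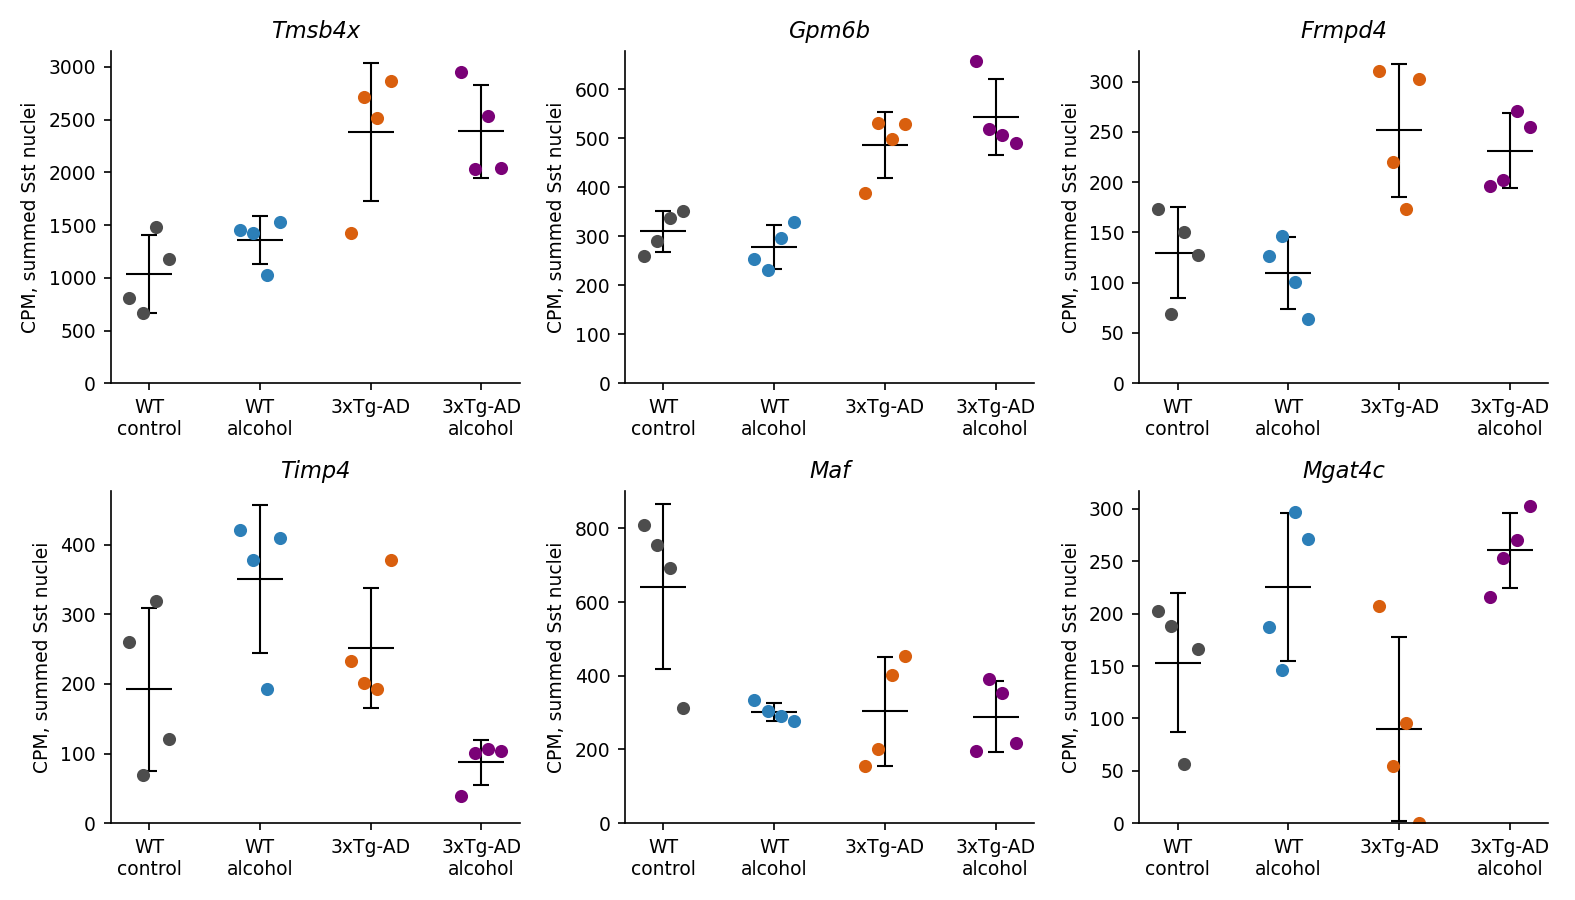
CPM in the summed Sst nuclei of each mouse (linear axes from 0) for 6 genes; points are mice, lines group means and bars 1 SD (n = 4). The means of the 3xTg-AD groups lie above those of the WT groups for Tmsb4x, Gpm6b and Frmpd4, with overlap of single mice for Tmsb4x and Frmpd4, the 3xTg-AD alcohol mice (39.3 to 106 CPM) lie below all WT alcohol mice for Timp4, and 3 WT control mice lie highest for Maf (693 to 810 CPM).

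Gene lists of Sst biology were read by counts alone, beside the values over all genes. Over the genotypes, of 15 Sst class markers tested 0 passed, and Crhbp (0.49, higher) and Maf (-0.55, lower) had an unadjusted p under 0.05 in the edgeR fit, as did 136 of all 1983 genes (6.86%). Npy stood at 522 ± 205 CPM in WT and 614 ± 270 CPM in 3xTg-AD mice (SD, n = 8), and Grin3a at 394 ± 59.2 and 365 ± 155 CPM, differences within their SDs. Of 16 glutamate receptor, 8 GABA receptor and 21 synaptic adhesion genes tested 0 passed, with medians of -0.06, -0.21 and -0.04. Of 12 Alzheimer genes tested 0 passed (median, 0.04). For alcohol, 0 genes of any list passed. At an unadjusted p under 0.05, 4 of 12 peptide processing genes (Scg5, Vgf, Cpe and Pcsk1n; median, 0.30), 3 of 8 GABA receptor genes (among them Gabbr1 and Gabbr2; median, 0.29) and 11 of 75 cytosolic ribosomal protein genes (median, 0.18) were higher with alcohol, and 0 of each list lower. In the other direction, 4 of 21 synaptic adhesion genes (Cntnap5a, Ptprd, Cdh13 and Pcdh9; median, -0.09) and 2 of 8 genes of GABA synthesis and transport (among them Slc38a2; median, 0.14) were lower and 0 higher, and of 3 immediate early genes Egr1 and Homer1 were lower and Vgf higher. Without the 3 mice rich in Gm42418, 2 of 14 peptide processing, 0 of 10 GABA receptor and 2 of 78 cytosolic ribosomal protein genes were higher at that p, 2 of 25 synaptic adhesion genes were lower and 1 higher (median, 0.02), and 1 of 8 genes of GABA synthesis and transport was lower (median, -0.06). Of the immediate early genes 1 was then lower and 1 higher. Over all 1983 genes of the fit with all mice, 70 were higher and 105 lower at that p, with a median of -0.02. Over all 2772 genes of the fit without the 3 mice, 99 were higher and 110 lower, with a median of -0.004. The list members above were named after their values were seen. Rbp4 (0.66) and Satb1 (0.48) among the Sst class markers were higher by that measure and Maf (-0.52) lower. Nos1, the nitric oxide synthase of the long-range type, was at 201 ± 157 CPM in unexposed and 83.2 ± 53.7 CPM in exposed mice (SD, n = 8; log2 fold change, -1.34; -1.10 without the 3 mice rich in Gm42418, of which 3xTg-AD mouse 12 held the highest level, 518 CPM). All 4 ribosomal RNA-associated transcripts were lower with alcohol at an unadjusted p under 0.05 (median, -0.89). The 3 mice rich in Gm42418 were all unexposed, and without them 2 of the 4 were lower at that p (median, -0.33).

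Whether group differences were of another size in Sst nuclei than in the Pvalb, Vip and Lamp5 nuclei of the same mice was tested for 1104 genes. With edgeR 0 genes passed for genotype, alcohol or 3xTg-AD alcohol against WT control, with 58, 47 and 43 genes at an unadjusted p under 0.05, and 0 passed with DESeq2. Against the more numerous GABAergic nuclei with no Sst UMI (6898 genes), a comparison added after the data were seen, Maf passed for 3xTg-AD alcohol against WT control (0.0145% of genes). There the difference in Sst nuclei was lower than in the other GABAergic nuclei by a log2 value of -1.23 ± 0.26 (adjusted p = 0.0130). The WT control level of Maf was carried by mice 26, 27 and 28, and without the 3 mice rich in Gm42418, 26 and 27 among them, the difference was -0.74 ± 0.31 and did not pass (adjusted p = 0.999). Bex4, a small X-linked gene of unsettled role outside the window above, passed for genotype (0.0145%; -4.49 ± 0.98; adjusted p = 0.0287), also without those mice (-5.07, adjusted p = 0.00336). It rests on few UMIs, 16 in WT control, 26 in WT alcohol, 0 in 3xTg-AD and 9 in 3xTg-AD alcohol mice (24.4 to 42.5 CPM in WT alcohol and 12.6 to 35.3 CPM in 3xTg-AD alcohol mice), so the fitted size depends on the prior count of the model. Against glutamatergic nuclei (13015 genes) 0 genes passed in these 3 contrasts, with 731, 856 and 558 genes at an unadjusted p under 0.05 for genotype, alcohol and 3xTg-AD alcohol against WT control. For the last contrast, the Maf value was -0.79 ± 0.28 there and -0.39 ± 0.41 against the Pvalb, Vip and Lamp5 nuclei (adjusted p = 0.984, edgeR).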

How the data were processed

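The authors made Chromium 3ʹ libraries from nuclei of the medial PFC of 16 male mice, aligned the reads to mm10 with Cell Ranger 6.1.1 (which runs STAR), filtered the nuclei (limits not given in the sources used here) and deposited raw UMI counts, not normalized, for 19999 genes in 114512 nuclei (216742276 UMIs; 9622031 to 17544364 per mouse). Each nucleus was tied to its mouse and group by its sample label.

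Sst nuclei were chosen by counts of 7 genes, which stayed in the library sizes and were not tested, and their counts were summed per mouse. The members and the 26 gene lists were chosen with earlier results of these data known. Sums were tested with edgeR 4.0.16 (R 4.3.3; TMM, filterByExpr, robust quasi-likelihood fit with a mean per group, Benjamini-Hochberg, calls at an adjusted p of 0.05 or less) in 8 contrasts, with the mouse as a block where kinds of nuclei were compared. The filter left 1983 genes, and genes of fewer counts were not tested. Shares were tested by exact permutation of the mice, all 12870 splits for 8 against 8. Genotype was permuted without regard to alcohol, and alcohol without regard to genotype. Alternatives were DESeq2 1.42.0, other normalization, filters and limits of the rule, a Gm42418 covariate, and leaving out mice. The fits were tested on simulated data. No doublet caller was run; nuclei over 2.5 times the median UMIs of their mouse were left out as an alternative. Nuclei were thinned with numpy 2.4.6. Positions came from GENCODE M21 (19664 genes matched by symbol) and the promoter from RefSeq.

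Every called gene is named, or the 3 with the smallest p where none was called. For the comparison with other nuclei, the 10 largest called changes per direction with at least 50 CPM and list members may be named. Values of some genes, and some alleles, are not reported here. The human transgenes and behavior were not analysed here.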

Additional observations from a re-analysis of the deposited data

Results flagged for a closer look

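Among 52 groups of 4 mice tested for a mouse far from the others of its group, 3 were found, where chance gives about 1 in 20. Lrtm1 stood at 153 CPM in WT control mouse 36 and at 260 to 281 CPM in the other 3 WT control mice. Timp4 stood at 39.3 CPM in 3xTg-AD alcohol mouse 4 and at 101 to 106 CPM in the others of its group. Gpm6b stood at 657 CPM in the same mouse 4 and at 491 to 518 CPM in the others. Mouse 4 gave 44 Sst nuclei.

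The effect of alcohol on Timp4 differed between the genotypes by the interaction test, with a log2 difference of -2.44 ± 0.52 (SE; adjusted p = 0.0409, edgeR). The call was lost in 11 of 16 fits without 1 mouse (adjusted p up to 0.266) and in 7 of 11 other alternatives. Timp4 averaged 192 ± 117 CPM in WT control and 350 ± 106 CPM in WT alcohol mice, and 251 ± 86.2 CPM in 3xTg-AD and 87.5 ± 32.2 CPM in 3xTg-AD alcohol mice (SD, n = 4 each). The difference between 3xTg-AD alcohol mice and WT controls was lower for Maf in Sst nuclei than in GABAergic nuclei without an Sst UMI, by a log2 value of -1.23 (adjusted p = 0.0130), and by -0.74 without the 3 mice rich in Gm42418, which did not pass (adjusted p = 0.999). The Maf value was -0.39 ± 0.41 against the Pvalb, Vip and Lamp5 nuclei (adjusted p = 0.984, edgeR) and -0.79 ± 0.28 against glutamatergic nuclei, and neither passed. In Sst nuclei Maf stood at 642 ± 225 CPM in WT controls (810, 754 and 693 CPM in mice 26, 27 and 28 and 313 CPM in mouse 36) and between 290 ± 97.2 and 303 ± 147 CPM in the other 3 groups. The difference between genotypes was lower for Bex4 in Sst nuclei than in those GABAergic nuclei by a fitted log2 value of -4.49 (adjusted p = 0.0287), from 16 UMIs in WT control, 26 in WT alcohol, 0 in 3xTg-AD and 9 in 3xTg-AD alcohol mice. WT alcohol mice stood at 24.4 to 42.5 CPM and 3xTg-AD alcohol mice at 12.6 to 35.3 CPM, so the unexposed 3xTg-AD mice held all the values of 0 but that of WT control mouse 26.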

How the results depend on the processing

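No paired analysis was possible because each mouse number occurs in 1 group only. The cause of the changes listed here was not tested. The genotype contrast (3 genes) gave 9 without a filter on low counts, 14 with Sst at least 1 UMI, 1 with Slc17a7 at 0 and 0 with Sst at least 5 UMIs. The alcohol contrast (0) gave 3 without the filter, 4, 1 and 3 with Sst at least 1, 3 and 5 UMIs, 2 with a Gm42418 covariate and 2 without the 3 mice richest in Gm42418. The interaction (1) gave 0 with DESeq2, Slc17a7 at 0, Sst at least 1, 3 or 5 UMIs, the covariate, or those mice left out. 3xTg-AD alcohol against WT control (1) gave 3 with DESeq2, 2 without the filter, 7 with Sst at least 1 UMI, 2 with Sst at least 5 UMIs, 2 without nuclei of many UMIs, and 0 with the covariate or without those mice. 3xTg-AD against WT control (1) gave 2 with DESeq2, 3 without the filter, 3 with Sst at least 1 UMI, and 0 with Sst at least 5 UMIs or without those mice. WT alcohol against WT control (0) gave 4 without the filter and 2 with Sst at least 1 UMI. 3xTg-AD alcohol against 3xTg-AD (0) gave 1 without those mice. 3xTg-AD alcohol against WT alcohol (3) gave 7 without the filter, 5 with Sst at least 1 UMI, 1 with Slc17a7 at 0, 1 with a stricter filter on nuclei, 5 with the covariate and 7 without those mice. Leaving out 1 mouse, these counts ranged from 2 to 6 (genotype), 0 to 3 (alcohol), 0 to 2 (interaction), 1 to 3, 0 to 2, 0 to 3, 0 to 1 and 1 to 6, in the order above. The 57 genes called against the other classes became 5673 without the filter (2957 against Pvalb, 1322 against Vip, 2048 against Lamp5 nuclei) and 590 against GABAergic nuclei with no Sst UMI, and Mir124a-1hg (0.044), Ptprd (0.042) and Cit (0.10) changed sign without the filter. Without 1 mouse these counts were 53 to 60, 38 to 52, 44 to 52 and 51 to 65. The class by group test (0) gave 1 gene for genotype and 1 for 3xTg-AD alcohol against WT control with GABAergic nuclei with no Sst UMI, and 1 and 0 when the 3 mice were also left out, and without 1 mouse 0 to 1 in those contrasts and 0 to 0 for alcohol. The share difference of 3xTg-AD alcohol against WT control changed sign with Sst at least 1 UMI (-0.15 points), thinning (-0.043) and without those mice (-0.14), and the genotype difference passed with thinning (-0.15). Without 1 mouse the share differences ranged from 0.24 to 0.48 (WT alcohol), -0.33 to -0.10 (3xTg-AD) and -0.10 to 0.12 (3xTg-AD alcohol) against WT controls, -0.36 to -0.21 for genotype (passing without WT control mouse 26) and 0.22 to 0.36 for alcohol (passing without WT control mouse 36). The Sst at least 5 UMIs alternative, the comparisons with GABAergic nuclei with no Sst UMI, and the shares without those 3 mice were chosen after seeing the data. The gene fits with Sst at least 5 UMIs left out WT control mouse 26 and 3xTg-AD mice 13 and 21, which held fewer than 5 such nuclei.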
